A study of Homo sapiens with 2 samples.

Results

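The tubulin and stathmin genes followed here were 9 genes taken by symbol from the 36601 genes of the count files: the alpha-tubulins TUBA1A, TUBA1B and TUBA1C, the beta-tubulins TUBB, TUBB2A, TUBB4B and TUBB6, the gamma-tubulin TUBG1, and the tubulin-binding protein stathmin, STMN1. Their mRNA was measured by single-cell RNA sequencing of A549, an epithelial cell line derived from a human lung adenocarcinoma, with 1 library for each of 2 groups. The Squashed library came from cells that had been confined with PDMS (polydimethylsiloxane) micropillars, and the Control library from unconfined cells in 2D culture. The cells of both libraries came from a line with a chromosome reporter (ChReporter) and were sorted live as ChReporter-negative after 48 h of recovery, a state of roughly 1 cell in 500, so neither library represents the bulk of the culture. With 1 library per group there was no replicate check and no test, every ratio compares 2 libraries, and every 95% interval covers counting error only.

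Microtubules are hollow polymers of alpha- and beta-tubulin dimers that form the interphase network and the mitotic spindle. Gamma-tubulin sits in ring complexes at the centrosome and templates new microtubules, and stathmin binds free dimers and promotes microtubule shortening until it is phosphorylated at mitotic entry. Human cells express several alpha and beta genes, called isotypes, whose proteins differ mainly in their C-terminal tails, and the level of tubulin mRNA is lowered when free dimers are abundant, through recognition of the newly made protein by TTC5. Several tubulin genes and STMN1 are transcribed most in dividing cells.

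The start regions of 4 alpha and beta genes are shown because TUBB4B, TUBA1C and TUBA1B went together across cells while TUBA1A did not. Each runs from 250 bases before to 50 bases after the start in the RefSeq table for GRCh38.p14, which held an entry for 9 of the 9 genes. It held 3 windows for TUBA1C, of which the one at the canonical start is shown, and 1 each for TUBB4B, TUBA1B and TUBA1A. Motifs were searched on both strands. Capitals mark CCAAT, the letters of the CCAAT box common in cell cycle promoters, which reads ATTGG when it lies on the other strand. They also mark TTTGAA, the letters of the CHR element found in many genes of the late cell cycle, which reads TTCAAA on the other strand. The letters TATAAA of the TATA box, or TTTATA on the other strand, were searched as well. These motifs share no overlapping match in the sequences shown.
TUBB4B, chr9:137241037-137241336, plus strand: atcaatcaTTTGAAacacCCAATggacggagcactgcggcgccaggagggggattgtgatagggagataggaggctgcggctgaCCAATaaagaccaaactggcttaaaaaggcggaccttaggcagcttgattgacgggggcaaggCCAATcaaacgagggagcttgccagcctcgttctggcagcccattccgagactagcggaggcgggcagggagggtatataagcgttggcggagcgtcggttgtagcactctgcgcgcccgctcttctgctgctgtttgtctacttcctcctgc
TUBA1C, chr12:49264832-49265131, plus strand: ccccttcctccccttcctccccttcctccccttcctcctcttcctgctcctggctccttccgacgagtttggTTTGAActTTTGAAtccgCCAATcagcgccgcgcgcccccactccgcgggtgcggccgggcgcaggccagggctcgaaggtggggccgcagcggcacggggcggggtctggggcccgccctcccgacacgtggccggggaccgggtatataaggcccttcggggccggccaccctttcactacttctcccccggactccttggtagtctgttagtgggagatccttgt
TUBA1B, chr12:49131346-49131645, minus strand: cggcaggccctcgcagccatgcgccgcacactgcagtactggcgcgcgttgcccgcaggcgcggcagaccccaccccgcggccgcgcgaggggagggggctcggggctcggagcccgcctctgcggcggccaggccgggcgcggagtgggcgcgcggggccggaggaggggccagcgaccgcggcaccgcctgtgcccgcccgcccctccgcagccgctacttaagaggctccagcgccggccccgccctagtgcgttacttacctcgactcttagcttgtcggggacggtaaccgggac
TUBA1A, chr12:49189031-49189330, minus strand: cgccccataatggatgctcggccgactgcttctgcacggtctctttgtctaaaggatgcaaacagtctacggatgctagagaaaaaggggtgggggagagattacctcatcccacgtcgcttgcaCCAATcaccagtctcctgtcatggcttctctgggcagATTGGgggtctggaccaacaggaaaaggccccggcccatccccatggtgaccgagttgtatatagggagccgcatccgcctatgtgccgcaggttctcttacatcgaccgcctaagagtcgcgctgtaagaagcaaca
TUBB4B held 3 CCAAT matches, with first bases at -232, -166 and -103 from the start, and a TTTGAA match at -242. TUBA1C held 2 TTTGAA matches, at -178 and -170, followed by CCAAT at -160. TUBA1A held 2 CCAAT matches, at -125 and -88, and no TTTGAA, and the TUBA1B window held none of the 3 motifs. Among 35116 promoters of the same length, 34.6% held CCAAT, 3.26% held at least 3 CCAAT matches, 10.8% at least 2, 15.2% held TTTGAA, 5.90% held CCAAT and TTTGAA, and 11.5% held TATAAA. TUBB, TUBB6, TUBG1 and STMN1 each held 1 CCAAT match, and TUBB2A held TATAAA at -30 and no CCAAT. These are matches of letters and do not show binding.

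In GENCODE 44 on GRCh38 the alpha genes lie close together on chromosome 12, with TUBA1B at chr12:49127782-49131397 and TUBA1A at chr12:49184686-49189080 on the minus strand and TUBA1C at chr12:49188736-49274600 on the plus strand. The full gene span of TUBA1C thus overlaps the start of TUBA1A in antisense. The canonical TUBA1C start shown above (chr12:49264832-49265131) lies outside TUBA1A. TUBB (chr6:30717435-30725538, plus) and TUBB2A (chr6:3153497-3157544, minus) lie on chromosome 6. TUBB4B is at chr9:137241287-137243707 (plus), TUBB6 at chr18:12307669-12344320 (plus), TUBG1 at chr17:42609641-42615238 (plus) and STMN1 at chr1:25884181-25906991 (minus). Tubulin genes are near-identical over long stretches. Of the 451 windows of 50 nt in the last 500 nt of the canonical transcript, the share also present in transcripts of other genes was 55.4% for TUBB2A, 49.9% for TUBA1B, 28.8% for TUBA1A, 22.8% for TUBB4B and 13.5% for TUBG1, and 0 for TUBA1C, TUBB, TUBB6 and STMN1. No source used here states how reads from such stretches were assigned, so the split between TUBA1A and TUBA1B, and the level of TUBB2A, are uncertain. The family sums and isotype shares are exposed as well, because some shared windows match genes outside the sums. TUBA1A and TUBA1B shared windows with TUBAP2, and TUBB2A and TUBB4B with TUBB2B, TUBB3 and TUBB4A.

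The Squashed library kept 1930 of 3132 barcodes with 23328323 UMIs (unique molecular identifiers, 1 per captured molecule), and the Control library kept 1906 of 2574 barcodes with 27482392 UMIs. Median depth per kept cell was 9331 UMIs and 1790 genes in Squashed and 12459 UMIs and 2598 genes in Control. The libraries shared 4 barcodes, of which 2 were kept in both. Of 6 epithelial markers 3 were measured, and the list summed to 2113 CPM in Squashed and 2848 CPM in Control. Not measured were EPCAM, with 0 UMIs in Squashed and 5 in Control, CDH1 and KRT19. CDH1 had 4.12 CPM in Squashed and 7.86 CPM in Control, and KRT19 2.79 CPM in Squashed and 2.44 CPM in Control. KRT18, a keratin of simple epithelia, stood at 557 CPM in Squashed and 1691 CPM in Control, whereas its partner KRT8 stood at 1169 CPM in Squashed and 796 CPM in Control and KRT7 at 381 CPM in Squashed and 350 CPM in Control. Sums over 6 fibroblast, 6 immune and 6 endothelial markers were at most 6.39 CPM in Squashed and 7.82 CPM in Control, with no member measured. No UMI was found for 2 fibroblast markers in each library, for 3 immune markers in each, and for 4 endothelial markers in Squashed and 5 in Control. Of 6 neuron markers, SNAP25 and SYT1 were measured, and the sum was 61.7 CPM in Squashed and 78.9 CPM in Control. The part of these markers in the tubulin values was not tested.

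Over all kept cells, TUBA1A, an alpha-tubulin best known from developing neurons, was the tubulin gene highest in Squashed relative to Control among the 9, and TUBB6, a class V beta-tubulin, and TUBB2A, a class IIa beta-tubulin, were the lowest. The major isotypes TUBA1B, TUBA1C, TUBB and TUBB4B differed by less than 1.5-fold between the libraries. Levels are given as UMI counts scaled by the library's total (CPM), not divided by transcript length, because the kit tags transcript ends. TUBA1A had 127 CPM in Squashed (2972 UMIs) and 61.8 CPM in Control (1699 UMIs), a log2 ratio of 1.04 (0.96 to 1.13), higher than 99.0% of the 4307 measured genes. A gene was called measured at 20 CPM or more in either library, which 8 of the 9 genes passed; the exception was TUBB2A. TUBB6 had 24.6 CPM in Squashed (574 UMIs) and 50.6 CPM in Control (1391 UMIs), a log2 ratio of -1.04 (-1.18 to -0.90). TUBB2A had 5.44 CPM in Squashed (127 UMIs) and 10.7 CPM in Control (294 UMIs), a log2 ratio of -0.97 (-1.29 to -0.67). Of the 8 measured genes, 1 was at least 1.5-fold higher and 1 at least 1.5-fold lower, where 3.48% of all measured genes were that much higher and 12.4% that much lower. Both genes were also past 2-fold, as were 1.09% of measured genes upward and 5.11% downward. With TMM scaling, which assumes that most genes do not differ, the same 2 genes passed 1.5-fold, TUBA1A at 1.19 and TUBB6 at -0.89, where 5.67% of measured genes were that much higher and 8.80% that much lower.

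The abundant isotypes made up most of the tubulin mRNA. TUBA1B, the main alpha-tubulin of proliferating cells, had 1197 CPM in Squashed and 982 CPM in Control (log2 ratio 0.29, 0.26 to 0.31). TUBB, the class I beta-tubulin of most tissues, had 723 CPM in Squashed and 546 CPM in Control (0.41, 0.37 to 0.44). Both lay above the median log2 ratio of -0.14 over all measured genes. TUBA1C had 707 CPM in Squashed and 790 CPM in Control (-0.16, -0.19 to -0.13). TUBB4B, a class IVb beta-tubulin, had 608 CPM in Squashed and 630 CPM in Control (-0.05, -0.09 to -0.02). TUBG1, the main gamma-tubulin, had 75.6 CPM in Squashed and 78.0 CPM in Control (-0.04, -0.14 to 0.05), and STMN1 had 287 CPM in Squashed and 347 CPM in Control (-0.27, -0.32 to -0.23). TMM scaling moved the median of all genes by 0.15 to 0.02. Under it TUBB4B stood at 0.10 and TUBG1 at 0.11, so their small differences have no settled sign, and TUBA1C at -0.01 and STMN1 at -0.12 were close to even.

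**Figure D1:**
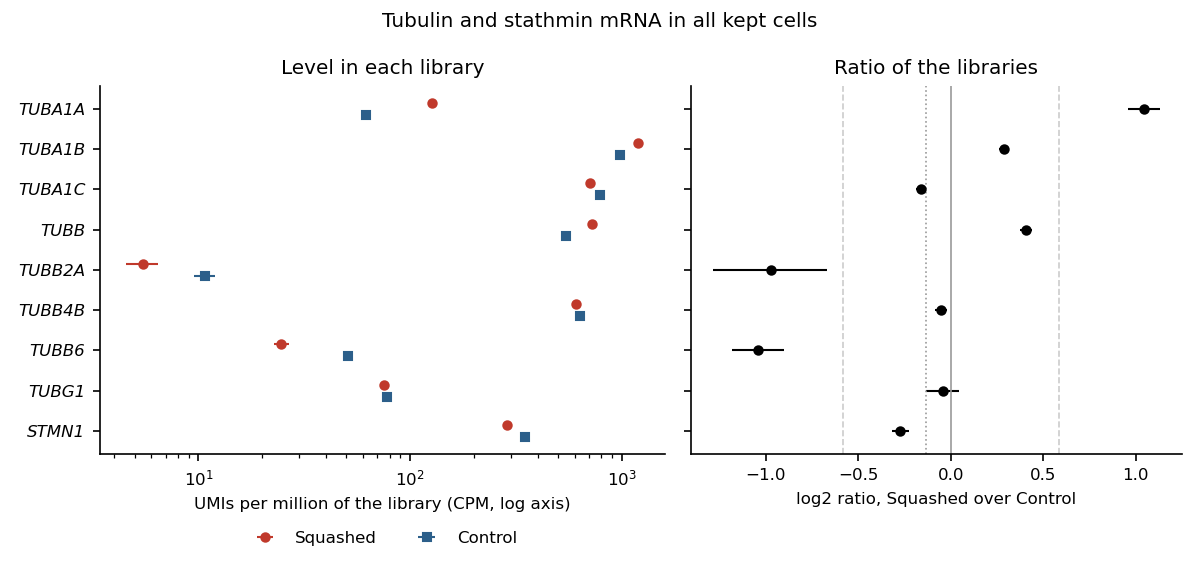
Left, level of each gene in CPM on a log axis, in Squashed (circles) and Control (squares); right, log2 ratio of Squashed over Control. Bars are 95% counting intervals, the dotted line is the median of all measured genes and dashed lines mark 1.5-fold. TUBA1A lies beyond the upper line at 1.04, and TUBB2A and TUBB6 lie beyond the lower one at -0.97 and -1.04.

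Added together, the alpha-tubulin genes held 2031 CPM in Squashed and 1834 CPM in Control (log2 ratio 0.15, 0.13 to 0.17), and the beta-tubulin genes held 1361 CPM in Squashed and 1238 CPM in Control (0.14, 0.11 to 0.16). The ratio of alpha to beta UMIs was 1.49 in Squashed and 1.48 in Control. These whole-library sums depend on which cells are counted and how they are weighted. With cells of at least 2000 UMIs, 1000 genes and at most 10% mitochondrial UMIs, the alpha sum was at -0.21 and the beta sum at -0.17, and as a mean over cells they were at -0.04 and -0.05. The libraries were therefore also compared within called phases and within groups of similar cells.

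Taken over all cells of a called phase, most tubulin genes were far higher in cells called G2/M than in cells called G1, in both libraries. Phases were called from genes of DNA replication and of G2 and mitosis that held none of the 9 genes (TUBB4B, which standard lists include, was taken out), on cells thinned to 2000 UMIs. The calls placed 840 Squashed and 661 Control cells in G1, 98 Squashed and 77 Control cells in S, and 844 Squashed and 1087 Control cells in G2/M. They are ranges of a score and not proof of cycling; 270 Squashed and 229 Control cells lay within 0.05 score units of the boundary of G1. TUBB4B went highest, with 1017 CPM in G2/M cells and 173 CPM in G1 cells of Squashed, a ratio of 5.87, and 1045 CPM in G2/M cells and 94.9 CPM in G1 cells of Control, a ratio of 11.0. It ranked 106 of 4278 measured genes by this ratio in Squashed and 72 of 4751 in Control. TUBA1C was 4.50-fold higher in G2/M than in G1 cells in Squashed and 7.21-fold higher in Control, and STMN1 was 3.42-fold higher in Squashed and 4.62-fold higher in Control. TUBA1B was 2.66-fold higher in Squashed and 5.37-fold higher in Control. TUBB was flatter, at 1.56-fold in Squashed and 2.06-fold in Control. Of the 8 measured genes, 7 were at least 1.5-fold higher in G2/M cells in each library, where 40.1% of measured genes in Squashed and 31.8% in Control were. The exception was TUBA1A, which had 90.3 CPM in G2/M cells and 165 CPM in G1 cells of Squashed (log2 ratio -0.87, -0.98 to -0.76), and 54.4 CPM in G2/M cells and 65.1 CPM in G1 cells of Control (-0.26, -0.41 to -0.11). At least 1.5-fold lower in G2/M cells were 7.83% of measured genes in Squashed and 17.8% in Control.

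Among the 3 called phases, TUBA1B, TUBA1C, TUBB and TUBB4B had their largest ratios of Squashed over Control in G1 cells. Depth differed there, with medians of 9077 UMIs and 1452 genes in Squashed and 14487 UMIs and 2682 genes in Control; its part was not tested. In G1 cells TUBA1B had 621 CPM in Squashed and 277 CPM in Control (log2 ratio 1.17, 1.10 to 1.23). TUBB had 546 CPM in Squashed and 334 CPM in Control (0.71, 0.65 to 0.77), and TUBB4B had 173 CPM in Squashed and 94.9 CPM in Control (0.87, 0.76 to 0.98). TUBA1A was at 1.34 (1.21 to 1.47), TUBA1C at 0.52 (0.44 to 0.61), TUBG1 at 0.56 (0.34 to 0.78) and STMN1 at 0.17 (0.05 to 0.28). Thus 4 of the 9 genes (TUBA1A, TUBA1B, TUBB and TUBB4B) were measured and at least 1.5-fold higher in G1 cells, and none was measured and that much lower, where 4.57% of measured genes were that much higher and 27.5% that much lower; the median of all measured genes there was -0.25. The summed alpha genes had 1040 CPM in Squashed and 519 CPM in Control G1 cells (1.00, 0.96 to 1.05), and the summed beta genes 734 CPM in Squashed and 448 CPM in Control (0.71, 0.66 to 0.77). The list of G2 and mitosis genes in the same cells stood at 1294 CPM in Squashed and 1155 CPM in Control (0.16, 0.13 to 0.20).

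In cells called G2/M the sums were nearly level, at 2888 CPM in Squashed and 2815 CPM in Control for alpha (0.04, 0.02 to 0.06) and 1913 CPM in Squashed and 1826 CPM in Control for beta (0.07, 0.04 to 0.09). TUBA1A was the 1 measured gene at least 1.5-fold higher, with 90.3 CPM in Squashed and 54.4 CPM in Control (0.73, 0.60 to 0.86). TUBB6 was the 1 measured gene that much lower, with 37.4 CPM in Squashed and 78.5 CPM in Control (-1.07, -1.24 to -0.91). In G1 cells TUBB6 had 11.8 CPM in Squashed and 13.9 CPM in Control (-0.24, -0.60 to 0.12), an interval that includes 0 at 119 Squashed and 149 Control UMIs. At least 1.5-fold higher in G2/M cells were 4.77% of measured genes, and 9.04% were that much lower. In cells called S the sums lay between, at 0.63 (0.55 to 0.70) for alpha and 0.47 (0.38 to 0.56) for beta. There TUBA1B, with 1627 CPM in Squashed and 1001 CPM in Control (0.70, 0.61 to 0.79), was the 1 measured gene at least 1.5-fold higher, where 6.82% of measured genes were, and TUBB6, at -1.19 (-1.93 to -0.52), the 1 measured gene that much lower, where 16.2% were. TUBB2A, not measured, was at -1.01 (-2.48 to 0.26).

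Ordering cells by the G2/M score within each library, in 5 equal groups numbered from the lowest score, showed where along that score the libraries differed. In group 1 TUBA1B had 600 CPM in Squashed and 186 CPM in Control (log2 ratio 1.69, 1.59 to 1.79). In group 5 it had 1929 CPM in Squashed and 1781 CPM in Control (0.12, 0.08 to 0.15). TUBB4B ran from group 1 to group 5 at 156, 155, 426, 816 and 1269 CPM in Squashed, and at 78.6, 152, 717, 1069 and 1256 CPM in Control. It was thus higher in Squashed in group 1, lower in groups 3 and 4, and close to even in group 5 (0.01, -0.03 to 0.06). The score itself differed between groups of the same number: the summed G2 and mitosis genes had 3679 CPM in Squashed and 6907 CPM in Control in group 3, but 11859 CPM in Squashed and 11756 CPM in Control in group 5. TUBB6 had 12.4 CPM in Squashed and 12.5 CPM in Control in group 1, and 37.2 CPM in Squashed and 80.3 CPM in Control in group 5 (-1.11, -1.35 to -0.88). TUBA1A was higher in Squashed in each of the 5 groups, at 176, 169, 123, 76.0 and 100 CPM in Squashed from lowest to highest, and at 68.7, 68.8, 48.4, 54.0 and 64.9 CPM in Control.

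**Figure D2:**
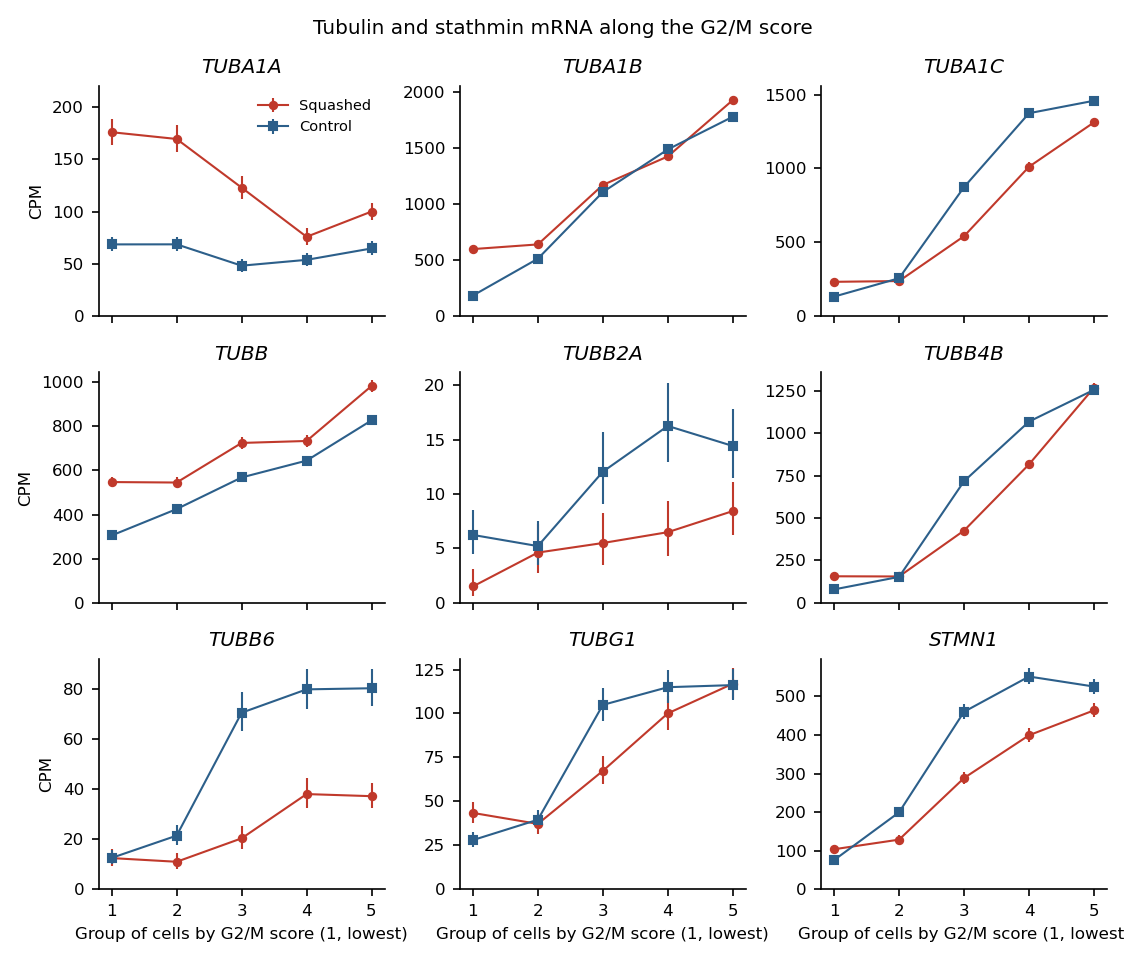
Level in CPM (linear axis from 0) of each gene in 5 equal groups of cells ordered by G2/M score within the library, from 1, lowest, to 5, highest; circles are Squashed, squares Control, bars 95% counting intervals. The TUBA1B curves lie apart in group 1, at 600 CPM in Squashed and 186 CPM in Control, and near each other in group 5, at 1929 CPM in Squashed and 1781 CPM in Control, while the TUBB6 curves separate toward group 5, at 37.2 CPM in Squashed and 80.3 CPM in Control.

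Cells were also grouped into states by clustering without the 9 genes, with each gene centred within its library. State 0 was led by HMMR, CCNB1 and AURKA, genes of mitosis, and the G2/M call covered 94.8% of its Squashed and 97.4% of its Control cells. In state 1, SNHG32 and SH3BGRL3 led in cells of few genes (medians of 1301 in Squashed and 1437 in Control), and in state 3 MTRNR2L8, MT-ND6 and CDC20 led. The deepest cells formed state 2, with NEAT1, HIST1H4C, SOX4 and FN1 in the lead and medians of 23438 UMIs in Squashed and 21529 UMIs in Control. The states are given by number, since their leading genes define no cell type fixed for this line. State 0 held 558 Squashed and 704 Control cells, state 1 held 637 Squashed and 302 Control cells, state 2 held 359 Squashed and 447 Control cells, and state 3 held 196 Squashed and 326 Control cells. State 3 held 20.4% of G2/M-called cells in Squashed and 26.3% in Control. In these Squashed cells TUBA1B (443 CPM) and TUBB (460 CPM) were below all Squashed G1-called cells (621 and 546 CPM). TUBA1C (688 CPM) and TUBB4B (716 CPM) were above them (254 and 173 CPM). In these Control cells TUBA1B (598 CPM) and TUBB (421 CPM) were above all Control G1-called cells (277 and 334 CPM).

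State 2 had the largest ratios of the alpha and beta sums among states 0 to 3. TUBA1B had 1167 CPM in Squashed and 483 CPM in Control (log2 ratio 1.27, 1.23 to 1.32), TUBB4B 472 CPM in Squashed and 226 CPM in Control (1.06, 0.99 to 1.13), and TUBA1C 472 CPM in Squashed and 260 CPM in Control (0.86, 0.79 to 0.93). TUBA1A had 172 CPM in Squashed and 80.6 CPM in Control (1.09, 0.97 to 1.21), TUBB 769 CPM in Squashed and 444 CPM in Control (0.79, 0.74 to 0.85), and TUBG1 70.5 CPM in Squashed and 43.6 CPM in Control (0.69, 0.51 to 0.87). These 6 genes were each at least 1.5-fold higher and none of the 9 was measured and that much lower, where 6.12% of measured genes were that much higher and 14.2% that much lower. STMN1 was at 0.33 (0.24 to 0.43) and TUBB6 at -0.13 (-0.42 to 0.16). The alpha sum had 1811 CPM in Squashed and 823 CPM in Control (1.14, 1.10 to 1.18). More Squashed than Control cells of state 2 were called G2/M (24.2% and 14.5%), and its G2 and mitosis genes had 4071 CPM in Squashed and 2960 CPM in Control (0.46, 0.44 to 0.48). Within the G1-called cells of state 2 (225 Squashed, 339 Control), the alpha sum was at 1.38 (1.31 to 1.44), TUBA1B at 1.72 (589 CPM in Squashed, 179 CPM in Control) and TUBB4B at 1.35 (225 CPM in Squashed, 88.5 CPM in Control), beside 0.42 for the G2 and mitosis genes. Within its G2/M-called cells (87 Squashed, 65 Control), the alpha sum had 3240 CPM in Squashed and 2163 CPM in Control (0.58, 0.53 to 0.64), where the G2 and mitosis genes had 10044 CPM in Squashed and 9968 CPM in Control (0.01, -0.02 to 0.04). Within its S-called cells (47 Squashed, 43 Control), the alpha sum was at 0.90 (0.81 to 0.99), beside 0.21 for the G2 and mitosis genes. The alpha sum was higher in Squashed in each called phase of state 2, and the part of the phase mix was not tested.

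The other 3 states gave other values; the difference between states was not tested. In state 0 TUBA1B had 1645 CPM in Squashed and 1694 CPM in Control (-0.04, -0.08 to -0.01), the alpha sum was at -0.12 (-0.14 to -0.09) and the beta sum at -0.08 (-0.11 to -0.04). TUBB6 was the 1 measured gene at least 1.5-fold lower there, with 36.2 CPM in Squashed and 81.7 CPM in Control (-1.17, -1.37 to -0.98), where 10.1% of measured genes were that much lower, and none was that much higher (4.82% of measured genes were). TUBB2A, under the level called measured, was at -0.93 (-1.39 to -0.49) in state 0. In state 1 TUBA1A had 148 CPM in Squashed and 48.3 CPM in Control (1.62, 1.38 to 1.87) and was the 1 measured gene at least 1.5-fold higher, where 11.2% of measured genes were; none of the 9 was measured and that much lower, where 10.5% were. The alpha sum in state 1 was at 0.17 (0.11 to 0.23). In state 3 the alpha sum had 1150 CPM in Squashed and 1381 CPM in Control (-0.26, -0.35 to -0.18), and TUBB6 was at -0.91 (-1.35 to -0.51), the 1 measured gene that much lower where 15.1% were (TUBB2A, not measured, was at -0.66, -1.83 to 0.29), with none that much higher where 7.23% were. The mix of states differed among G1-called cells, of which state 1 held 66.5% in Squashed and 37.5% in Control, and state 2 held 26.8% in Squashed and 51.3% in Control. Within G1-called cells of state 1 the alpha sum was at 0.56 (0.49 to 0.64) and the beta sum at 0.37 (0.28 to 0.46). There TUBA1A was at 1.67 and TUBB4B at 0.76, while TUBA1B at 0.50 and TUBB at 0.33 were under 1.5-fold. The part of the state mix in the G1 values was not tested. In those cells of state 1 the list of S phase genes was at 0.48 (0.35 to 0.61) and the median of all measured genes at 0.18, and in those of state 2 they were at 0.02 (-0.05 to 0.08) and -0.14. The few G1-called cells of the other states had alpha sums lower in Squashed, at -0.27 (-0.46 to -0.07) in state 0 (18 Squashed, 9 Control cells) and -0.59 (-1.01 to -0.21) in state 3 (12 Squashed, 32 Control cells).

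**Figure D3:**
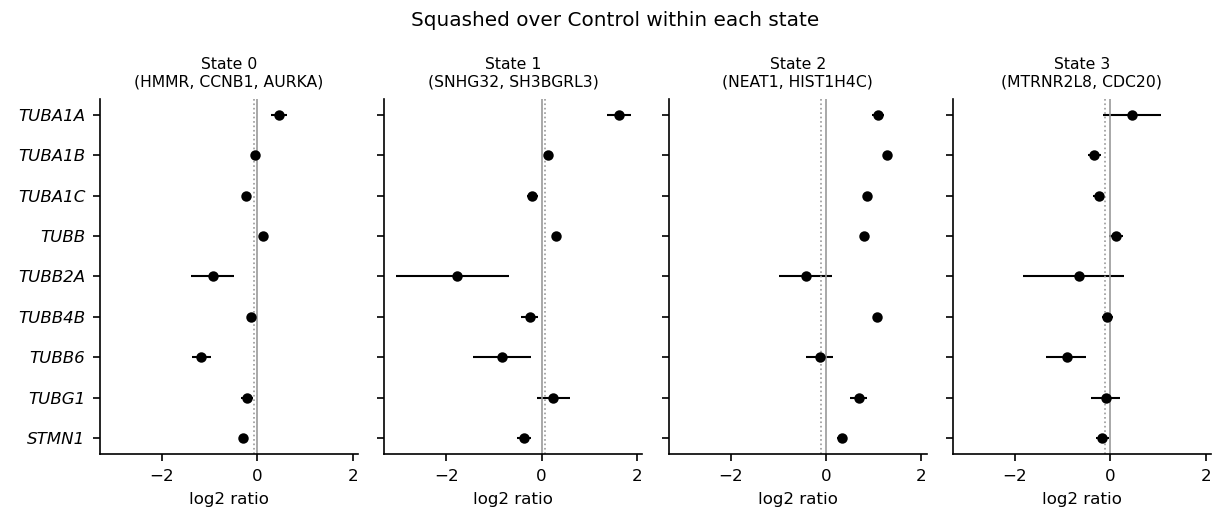
Log2 ratio of Squashed over Control for each gene (rows) within states 0 to 3 (panels); bars are 95% counting intervals and the dotted line is the median of all measured genes in that state. In state 2 TUBA1A, TUBA1B, TUBA1C, TUBB, TUBB4B and TUBG1 lie between 0.69 and 1.27, whereas in state 0 TUBA1B, TUBA1C, TUBB and TUBB4B lie between -0.24 and 0.13.

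The make-up of beta-tubulin mRNA differed more between G1 and G2/M cells than between the libraries. Among the beta UMIs of G1 cells, TUBB held 74.4% (73.4 to 75.4) in Squashed and 74.6% (73.3 to 75.8) in Control, and TUBB4B held 23.6% in Squashed and 21.2% in Control. In G2/M cells TUBB4B held the larger share, 53.1% (52.5 to 53.8) in Squashed and 57.2% (56.6 to 57.8) in Control, and TUBB held 44.5% in Squashed and 37.7% in Control. TUBB6 held 1.95% in Squashed and 4.30% in Control of the beta UMIs of G2/M cells. Among alpha UMIs of G1 cells, TUBA1C held 24.5% in Squashed and 34.1% in Control and TUBA1A held 15.8% in Squashed and 12.5% in Control. In G2/M cells TUBA1C held 39.6% in Squashed and 45.3% in Control, and TUBA1A held 3.12% in Squashed and 1.93% in Control. TUBA1B was the largest alpha share in each phase and library, between 52.8% and 71.9%. Over all kept cells TUBA1A held 6.27% of alpha UMIs in Squashed and 3.37% in Control.

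**Figure D4:**
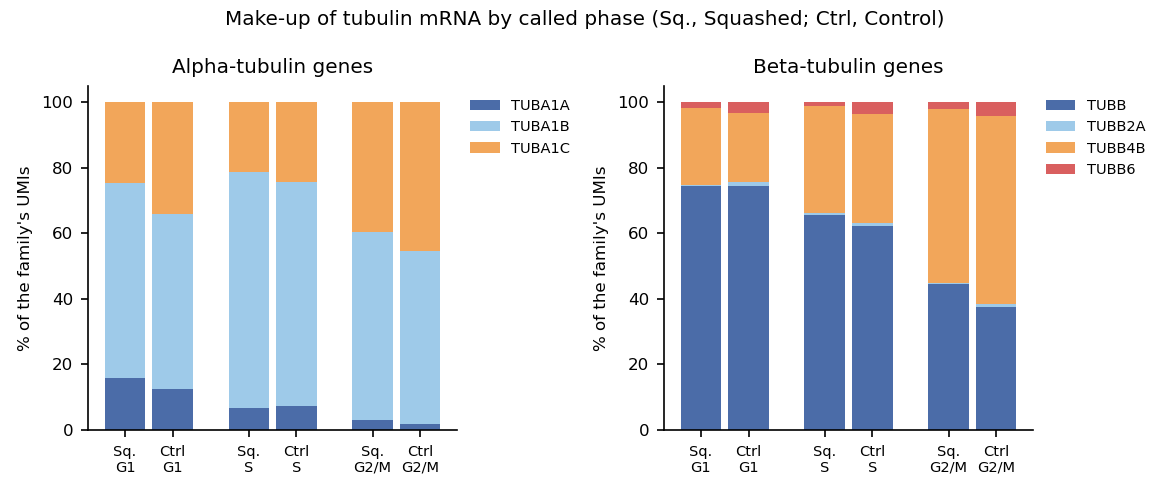
Share in percent of the UMIs of the 3 alpha-tubulin genes (left) and the 4 beta-tubulin genes (right) held by each gene in cells called G1, S and G2/M; each bar is 1 library, Squashed (Sq.) left of Control (Ctrl). TUBB4B takes 53.1% of beta UMIs in Squashed and 57.2% in Control in G2/M cells, against 23.6% in Squashed and 21.2% in Control in G1 cells.

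Per cell, the spread of TUBA1A differed between the libraries more than that of the abundant isotypes. In cells of at least 10000 UMIs thinned to that depth (906 Squashed, 1190 Control), its mean was 1.25 UMIs in Squashed and 0.610 UMIs in Control. Its variance over mean, which is 1 for pure counting noise, was 3.09 in Squashed and 1.499 in Control, its 95th percentile 5 UMIs in Squashed and 2 in Control, and its maximum 18 UMIs in Squashed and 7 in Control. Where cells differ beyond counting noise, all 3 values also rise with the mean, and the part of the higher mean in Squashed was not tested. The tenth of cells with the most TUBA1A held 46.5% of its UMIs in Squashed and 45.5% in Control. Counting noise alone raises this share where the mean is lower, so the 2 shares do not compare concentration beyond that noise. TUBA1B had a median of 11 UMIs in Squashed and 8 in Control, with variance over mean of 8.19 in Squashed and 9.30 in Control, and its lower quartile was 3 UMIs in Squashed and 1 in Control. TUBB had a median of 6 UMIs in Squashed and 5 in Control, TUBB4B 4 in each, TUBA1C 5.5 in Squashed and 6 in Control, and STMN1 2 in Squashed and 3 in Control. The 95th percentile of TUBA1B was 30 UMIs in Squashed and 27 in Control.

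Across the same cells TUBA1C, TUBB4B and TUBA1B were the most closely linked. Pearson r on log counts was highest for TUBA1C with TUBB4B, at 0.76 in Squashed and 0.81 in Control. It was 0.66 in Squashed and 0.77 in Control for TUBA1B with TUBA1C, and 0.51 in Squashed and 0.65 in Control for TUBB4B with STMN1. TUBA1A stayed between -0.16 and 0.21 with each of the other 8 genes in both libraries; with STMN1 it was at -0.16 in Squashed and 0.01 in Control. Of the 36 pairs, 32 had a lower r in Squashed. These pairs reuse the same genes and are not independent. The lower r was not particular to them. The isotype pairs with outside genes named in the next paragraph also had a lower r in Squashed, except TUBB4B with TOP2A. That pair was at 0.74 in Squashed and 0.70 in Control. The share among all other gene pairs was not tested. All these r values are descriptions over cells of 1 library each, which share depth and cell cycle position. Low counts pull r toward 0 for TUBA1A, TUBB2A, TUBB6 and TUBG1, whose means were at most 1.25 UMIs per cell.

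**Figure D5:**
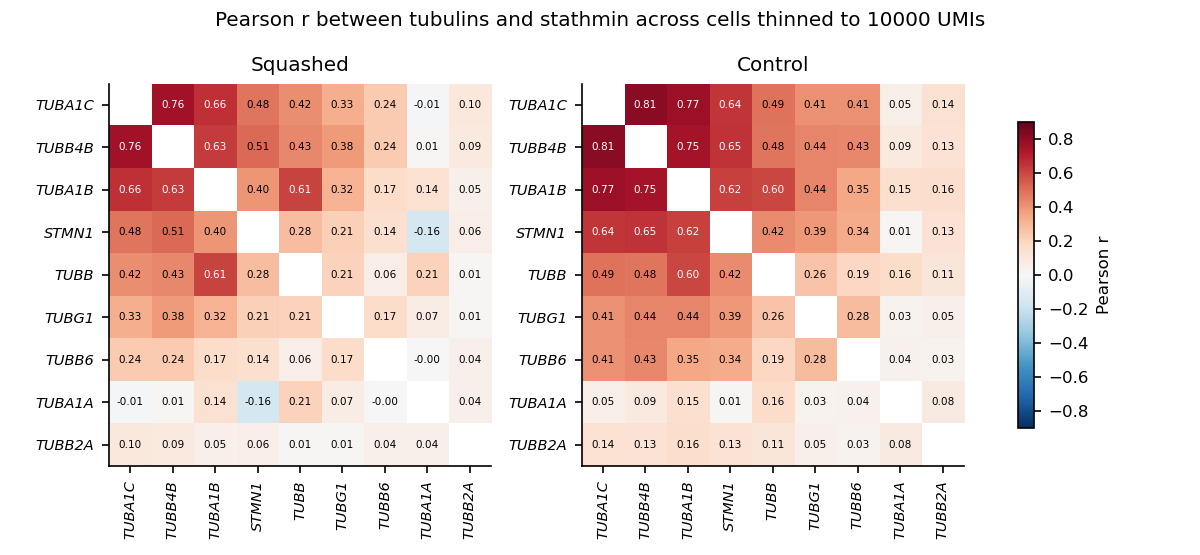
Pearson r between each pair of genes on log1p counts across cells thinned to 10000 UMIs, for Squashed (left, 906 cells) and Control (right, 1190 cells); color runs from -0.9 to 0.9. The block of TUBA1C, TUBB4B and TUBA1B holds the highest values, up to 0.76 in Squashed and 0.81 in Control, and the TUBA1A row stays between -0.16 and 0.21.

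Outside the 9 genes, the patterns most like the abundant isotypes were ranked. Among 956 genes of at least 100 CPM in both libraries, ranked by r averaged over the libraries, TUBB4B was followed most closely by CCNB1 (0.76), the cyclin of mitotic entry, CKS2 (0.75), TOP2A (0.72), BIRC5 (0.71) and CKS1B (0.71). TUBA1C was closest to CCNB1 (0.74), BIRC5 (0.73), the survivin of the chromosomal passenger complex, PTTG1 (0.71), the securin, TOP2A (0.70) and CKS1B (0.69). TUBA1B was closest to TOP2A (0.66), which untangles DNA, HMGB1 (0.63), H2AFZ (0.62), CKS1B (0.60) and the chaperone HSP90AA1 (0.59). TUBB was more loosely linked, to TOP2A (0.46), CENPF (0.42), KPNA2 (0.41), CKS1B (0.38) and PCLAF (0.38). The median r of the candidates ran from 0.05 to 0.12 for these 4 isotypes, and 5 of the 12 distinct genes named were in the lists used to call phases.

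Counts of other tubulin pathway genes past 1.5-fold over all kept cells stand beside the 3.48% of all measured genes that were that much higher and the 12.4% that were that much lower. Of 15 other tubulin genes 2 were measured, 1 higher and 1 lower. TUBB3, a class III beta-tubulin best known from neurons, had 27.5 CPM in Squashed and 85.3 CPM in Control (log2 ratio -1.63, -1.760 to -1.505), and TUBA4A, an alpha-tubulin abundant in muscle and platelets, had 86.5 CPM in Squashed and 55.4 CPM in Control (0.64, 0.55 to 0.74). Of 21 genes that fold tubulin or adjust its mRNA, 17 were measured, 1 was at least 1.5-fold higher and 1 at least 1.5-fold lower, with a median of -0.02. The lower one was TBCB, a cofactor that handles alpha-tubulin, with 59.1 CPM in Squashed and 151 CPM in Control (-1.35, -1.44 to -1.26). The higher one was PFDN1, a subunit of prefoldin, which passes new tubulin to the chaperonin, with 136 CPM in Squashed and 81.3 CPM in Control (0.75, 0.67 to 0.83). TBCA, a cofactor that handles beta-tubulin, was at 0.40 and TCP1, a chaperonin subunit, at -0.39. TTC5 had 18.2 CPM in Squashed and 19.0 CPM in Control, under the level called measured.

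Of 21 genes of the gamma-tubulin complexes and nucleation 10 were measured, with 0 higher, 1 lower and a median of -0.13. The lower one was MZT2B, a small protein of the ring complex, with 24.5 CPM in Squashed and 56.7 CPM in Control (-1.21, -1.35 to -1.07); MZT1 was at -0.44, MZT2A at -0.27 and TUBGCP2 at -0.26. Of 16 genes that destabilise or sever microtubules, as stathmin does, 4 were measured and none reached 1.5-fold: KATNBL1 was at -0.35, KIF2C at -0.17, KIF18A at 0.11 and KIF2A at 0.05. Of 24 genes for stabilisers and tip proteins 12 were measured, with 0 higher, 1 lower and a median of 0.04. NUMA1, which gathers spindle poles, had 19.8 CPM in Squashed and 32.2 CPM in Control (-0.70, -0.87 to -0.54), and under TMM scaling it was not past 1.5-fold while MAP7D3 was. By total UMIs MAP7D3 was at 0.50, the spindle assembly factor TPX2 at -0.44 and DCTN1, of dynactin, at 0.34. None of the 16 tubulin-modifying enzymes found in the files was measured.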

How the data were processed

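The kit was 10x Genomics Chromium 3.1 and the sequencer a NovaSeq 6000 run for 100 cycles, as the design text states. The values are raw UMI counts, deposited by the authors without normalization as whole numbers. They came from Cell Ranger and a GRCh38 reference; the design text gives version 5.0.1, while 4.0.0 stands in the matrix, per the file headers. The submitters' processing notes also list R 4.3.2 without a step.

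Kept cells had at least 1000 UMIs, 500 genes and at most 20% mitochondrial UMIs. Counts were summed over the kept cells of a library and divided by its total to give CPM. Log2 ratios used a prior of 0.5 count, with exact Clopper-Pearson intervals at 95%. Alternatives were TMM scaling (edgeR 4.0.16, R 4.3.3), other cell filters, thinning, low-count thresholds, a 2-fold size, phases, a mean over cells and, added after the whole-library values had been seen, states. Scrublet marked 16 doublets in each library, which stayed in. Free RNA was not estimated. Phases and states were called on cells thinned to 2000 UMIs with scanpy 1.11.5 and leidenalg 0.10.2 (2000 variable genes, 30 components, 15 neighbours, resolution 0.5), in Python 3.11.15 with numpy 2.4.6, scipy 1.17.1, pandas 2.3.3 and matplotlib 3.10.9. The ratio step was tested on simulated data with counting noise only, which cannot show how variation between cells or libraries affects the ratios. The genes and lists were chosen with earlier results of these data known. Named genes are the 9 genes, up to 4 measured genes of each pathway list with the largest absolute ratio, and, for each of the 9 with at least 500 CPM in both libraries, the 5 genes most like it.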

Additional observations from a re-analysis of the deposited data

Results flagged for a closer look

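The ratio of Squashed over Control took opposite signs, with counting intervals that excluded 0 in both, between cells called G2/M and cells called G1 for 3 genes. On the log2 scale TUBA1C was at -0.155 in G2/M cells and 0.525 in G1 cells. TUBB4B was at -0.0392 in G2/M cells and 0.868 in G1 cells, and STMN1 at -0.268 in G2/M cells and 0.165 in G1 cells. The median of all measured genes was -0.048 in G2/M cells and -0.247 in G1 cells. TUBB4B in G2/M cells thus lay close to that median, and its sign there is not settled.

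The same held between state 2 and state 0. TUBA1B was at 1.27 in state 2 and -0.0428 in state 0. TUBA1C was at 0.863 in state 2 and -0.235 in state 0, and TUBB4B at 1.06 in state 2 and -0.14 in state 0. TUBG1 was at 0.692 in state 2 and -0.216 in state 0, and STMN1 at 0.332 in state 2 and -0.309 in state 0. The alpha sum was at 1.14 in state 2 and -0.118 in state 0, and the beta sum at 0.856 in state 2 and -0.075 in state 0. The median of all measured genes was -0.096 in state 2 and -0.065 in state 0. In state 0, TUBA1B and the beta sum lay close to that median, and the alpha sum at -0.118 and TUBB4B at -0.14 not far below it. The signs of these values in state 0 are not settled. With 1 library per group, none of these differences was tested. Median depth in state 2 was 23438 UMIs in Squashed and 21529 UMIs in Control, and in state 0 it was 12457 UMIs in Squashed and 13504 UMIs in Control; its part was not tested.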

How the results depend on the processing

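Ratios here are log2 of Squashed over Control. The alpha sum, 0.15 as reported, was 0.30 with TMM scaling, 0.13 with no cell filter, 0.26 in cells of at least 10000 UMIs, 1.00 in G1, 0.63 in S and 0.0372 in G2/M cells, and 0.17 in state 1 and 1.14 in state 2. It was below 0 with the stricter cell filter (-0.21), in cells thinned to 2000 UMIs (-0.10), as a mean over cells (-0.0423), in state 0 (-0.12) and in state 3 (-0.26). The beta sum, 0.14 as reported, was 0.29 with TMM scaling, 0.25 in cells of at least 10000 UMIs, 0.71 in G1, 0.47 in S and 0.0675 in G2/M cells, and 0.18 in state 1 and 0.86 in state 2. It was below 0 with the stricter filter (-0.17), thinned (-0.06), as a mean over cells (-0.0461), in state 0 (-0.075) and in state 3 (-0.0454). The cause was not tested. The count of measured genes at least 1.5-fold lower, 1 as reported, was 2 with genes measured from 5 CPM, and 0 in G1 cells, state 1 and state 2. Of all measured genes, 12.4% were that much lower as reported, 14.6% from 5 CPM, 27.5% in G1 cells, 10.5% in state 1 and 14.2% in state 2. The count at least 1.5-fold higher, 1 as reported, was 4 in G1 cells, 6 in state 2, and 0 in state 0 and state 3. Of all measured genes, 3.48% were that much higher as reported, 4.57% in G1 cells, 6.12% in state 2, 4.82% in state 0 and 7.23% in state 3. Over 14 alternatives TUBA1A ran from 0.46 to 1.62, TUBB from 0.13 to 0.79, TUBB2A from -1.78 to -0.42 and TUBB6 from -1.30 to -0.13, each on 1 side of 0. TUBA1B and TUBA1C had the other sign in 3 alternatives each, STMN1 in 2, and TUBB4B and TUBG1 in 5 each. No paired analysis was possible because each group has 1 library. Depth limits TUBB2A most, at 127 UMIs in Squashed and 294 UMIs in Control.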

Other observations

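State 4, with 32 Squashed and 46 Control cells and a median mitochondrial share of 0.100% in Squashed and 0.161% in Control, was not described as a state of its own above; its cells are part of the phase and whole-library values. Its alpha sum had 2136 CPM in Squashed and 954 CPM in Control (log2 ratio 1.16, 0.92 to 1.41), and its beta sum 1502 CPM in Squashed and 770 CPM in Control (0.96, 0.69 to 1.25). These lie close to the values of state 2, at 398 Squashed and 212 Control alpha UMIs.

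The ratio of alpha to beta UMIs was not even across cells. In G1 cells it was 1.42 in Squashed and 1.16 in Control, and in state 2 it was 1.43 in Squashed and 1.18 in Control. In G2/M cells it was 1.51 in Squashed and 1.54 in Control, and in state 0 it was 1.60 in Squashed and 1.65 in Control. The lowest of the states was state 3, at 0.965 in Squashed and 1.12 in Control.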
